A study of Rattus norvegicus with 12 samples.

Results

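The genes described are 7 genes tied to the regional layout of the developing brain, namely En2, Cnpy1, Pax6, Zic1, Tfap2b, Draxin and Fabp7, out of 14217 genes that could be named on the array. They were read from 9 of the array's 31099 probe sets, those whose only gene symbol is a member: 3 probe sets for Tfap2b and 1 for each other gene. They were chosen by their log2 signals on these same arrays, several of them having been seen high in the induced pluripotent lines. Their levels in those lines are therefore a description, given without a test. For the 7 genes, tests are given only for pairs that do not set an iPS line against a line of another cell type. The choice also provided for noting members high in lines of embryonic stem-like profile. Tests of Cnpy1 between those lines and lines of fibroblast profile are therefore not independent of the choice. Other genes were also tested between an iPS line and another line, a contrast that the choice used.

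RNA was measured on 12 single-colour Affymetrix rat arrays, 2 for each of 6 lines or cultures. The lines A1 and A2 are induced pluripotent stem (iPS) cells of the FHH rat strain, made with a transposon system. DAC2 and DAC8 are embryonic stem (ES) lines whose strain the labels do not give, and REF2 and REF1 are cultures of FHH embryonic fibroblasts (EF) from e14.5 embryos. The labels mark the iPS and ES cells as positive for Oct4, Sox2, SSEA-1 and Nanog; these cells were grown in 2i medium and collected 5 days after passage, and fibroblasts were grown in MEF medium and collected 6 days after passage. Per the labels the iPS lines grew on mitotically inactivated mouse feeders; no feeder removal is mentioned, nor whether A1 and A2 each came from 1 clone. Separate cultures are not stated for the pair of arrays per line, so the p-values rest on a spread that may be purely technical.

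The array profiles did not follow all labels. The mean Pearson correlation across 11000 genes was 0.987 between DAC8 and REF1 and 0.975 between DAC2 and REF2, but 0.637 between DAC2 and DAC8 and 0.636 between REF2 and REF1; it was 0.994 between A1 and A2. Of 11 fibroblast markers, 10 reached a line mean of 5 in DAC8 and in REF1 and 2 in DAC2 and in REF2, while all 7 naive pluripotency markers measured here did so in DAC2 and in REF2. The lines labelled A1 and A2 reached 5 for 9 of 10 neuron markers each, against 4 in DAC2, 7 in DAC8, 5 in REF2 and 7 in REF1. They reached 5 for 3 and 4 of the 7 pluripotency markers, with Esrrb, Klf2 and Tfcp2l1 below 5 in both. No array was moved to another group, and every value below is given by line. Levels are log2 signals, so a difference of 1 is a 2-fold difference; levels under 5 were not shown to be above background, and where a side lies under 5 the true difference may be larger than printed.

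During development the neural tube is divided along its length into forebrain, midbrain, hindbrain and spinal cord, and from roof to floor into domains, each marked by its own transcription factors. The boundary of midbrain and hindbrain is a signalling centre that secretes Wnt and FGF proteins and holds neighbouring cells to a midbrain or cerebellar fate. En2 is an engrailed homeodomain factor of that region, and Cnpy1 belongs to the canopy family, whose zebrafish member takes part in FGF signalling at the boundary. Pax6 marks dorsal forebrain, hindbrain, eye and radial glia, Zic1 the dorsal neural tube and cerebellum, and Tfap2b the neural crest and some midbrain and hindbrain neurons. Draxin is a secreted axon guidance protein that also restrains Wnt signalling, and Fabp7 is the fatty acid-binding protein of radial glia.

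En2 and Cnpy1 are next to each other on rat chromosome 4 and, by the annotated strands, are transcribed toward each other. The windows around their annotated starts, 250 bases before to 50 after, are shown because the 2 neighbours had unlike patterns over the lines; sequences are from RefSeq, build GRCr8, at chr4:7960744-7961043 on the minus strand for En2 and chr4:7915919-7916218 on the plus strand for Cnpy1. Capitals mark the GC box GGGCGG, found once in the Cnpy1 window.
En2: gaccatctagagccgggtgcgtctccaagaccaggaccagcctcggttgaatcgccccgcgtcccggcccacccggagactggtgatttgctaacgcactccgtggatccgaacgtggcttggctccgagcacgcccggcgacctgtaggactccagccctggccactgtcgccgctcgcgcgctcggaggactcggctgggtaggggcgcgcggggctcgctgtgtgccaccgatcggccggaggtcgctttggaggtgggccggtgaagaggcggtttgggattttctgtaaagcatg
Cnpy1: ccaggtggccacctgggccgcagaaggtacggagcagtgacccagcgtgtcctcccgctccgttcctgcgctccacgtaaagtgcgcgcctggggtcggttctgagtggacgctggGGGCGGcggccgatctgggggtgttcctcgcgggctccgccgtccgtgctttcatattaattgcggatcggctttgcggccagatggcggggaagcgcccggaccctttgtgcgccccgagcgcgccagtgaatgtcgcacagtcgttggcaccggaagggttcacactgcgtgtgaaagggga
The windows had nearly the same composition. G and C made up 67.0% of the En2 window and 66.7% of the Cnpy1 window, against a median of 51.7% over 33469 windows of this length, and each held 33 CpG pairs against a median of 7. Searched on both strands, the TATA box (letters TATAAA), the CCAAT box (CCAAT itself), a homeodomain core (TAATTA) and a SOX core (ACAATG) were not in either window. Of all windows, 14.2% held the TATA box, 37.5% the CCAAT box, 33.1% the GC box, 5.36% the homeodomain core and 13.2% the SOX core. The E-box CANNTG, which reads the same on both strands and stands in 72.1% of windows, had 3 matches in the Cnpy1 window and 0 in the En2 window.

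En2 was high in both iPS lines and graded among the others. It measured 11.00 and 10.83 in A1 and 10.80 and 10.82 in A2. It measured 5.26 and 4.86 in DAC2, 3.65 and 3.69 in DAC8, 6.27 and 6.51 in REF2, and 3.93 and 3.58 in REF1. All 4 iPS arrays lay at least 4.30 above the highest of the other 8, and the order below them was REF2, DAC2 and then REF1 and DAC8 together. Among the lines other than the iPS lines, REF2 was higher than REF1 by 2.63 ± 0.15 (log2 units ± SE, n = 2 arrays per line, limma adjusted p = 1.57e-07), or 6.21-fold. DAC2 was higher than DAC8 by 1.39 ± 0.15 (limma adjusted p = 1.69e-05) and lower than REF2, at -1.33 ± 0.15 (limma adjusted p = 0.000159). REF1 and DAC8 are neighbours in the order that did not pass, with DAC8 minus REF1 at -0.08 (95% interval -0.43 to 0.26). In DAC8 and REF1 the signal was under 5.

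Cnpy1 was high in 4 of the 6 lines and is the member that both iPS lines shared with the lines of ES-like profile. It measured 11.52 and 11.53 in A1 and 11.47 and 11.43 in A2. It measured 10.69 and 10.66 in DAC2, 3.06 and 3.36 in DAC8, 11.10 and 11.02 in REF2, and 3.52 and 3.42 in REF1. The 4 high lines lay within 0.85 of each other by line mean, and DAC8 and REF1 lay more than 7 log2 units below them. DAC2 was higher than DAC8 by 7.47 ± 0.09 (limma adjusted p = 1.09e-11) and than REF1 by 7.20 ± 0.09 (limma adjusted p = 1.41e-11), and REF2 was higher than REF1 by 7.59 ± 0.09 (limma adjusted p = 1.38e-11). A high level in lines of ES-like profile was to be noted by the choice of genes, so these tests are not independent of it. DAC2 was lower than REF2, at -0.38 ± 0.09 (limma adjusted p = 0.00784), a call that was lost without REF2 replicate 1 (-0.34, adjusted p = 0.0512). Averaging by label hides this pattern, since Cnpy1 then stood at 11.49 ± 0.05 in iPS arrays, 6.94 ± 4.31 in ES arrays and 7.27 ± 4.38 in EF arrays (SD, n = 4 each). Of 8 epithelial markers, 1 reached 5 in A1 and 0 in A2, against 8 in DAC2, 1 in DAC8, 8 in REF2 and 1 in REF1. The log2 of the 7 pluripotency markers' summed signals was 9.08 in A1 and 8.98 to 9.01 in A2, against 13.63 in DAC2, 10.88 to 10.97 in DAC8, 13.55 to 13.56 in REF2 and 10.40 to 10.42 in REF1. The pluripotency factor gene Sall4 had the same 4 high lines as Cnpy1, with line means of 8.22 in A1 and 8.25 in A2, against 10.82 in DAC2, 3.29 in DAC8, 10.43 in REF2 and 3.55 in REF1. The part of these markers in the level of Cnpy1 was not tested.

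**Figure D1:**
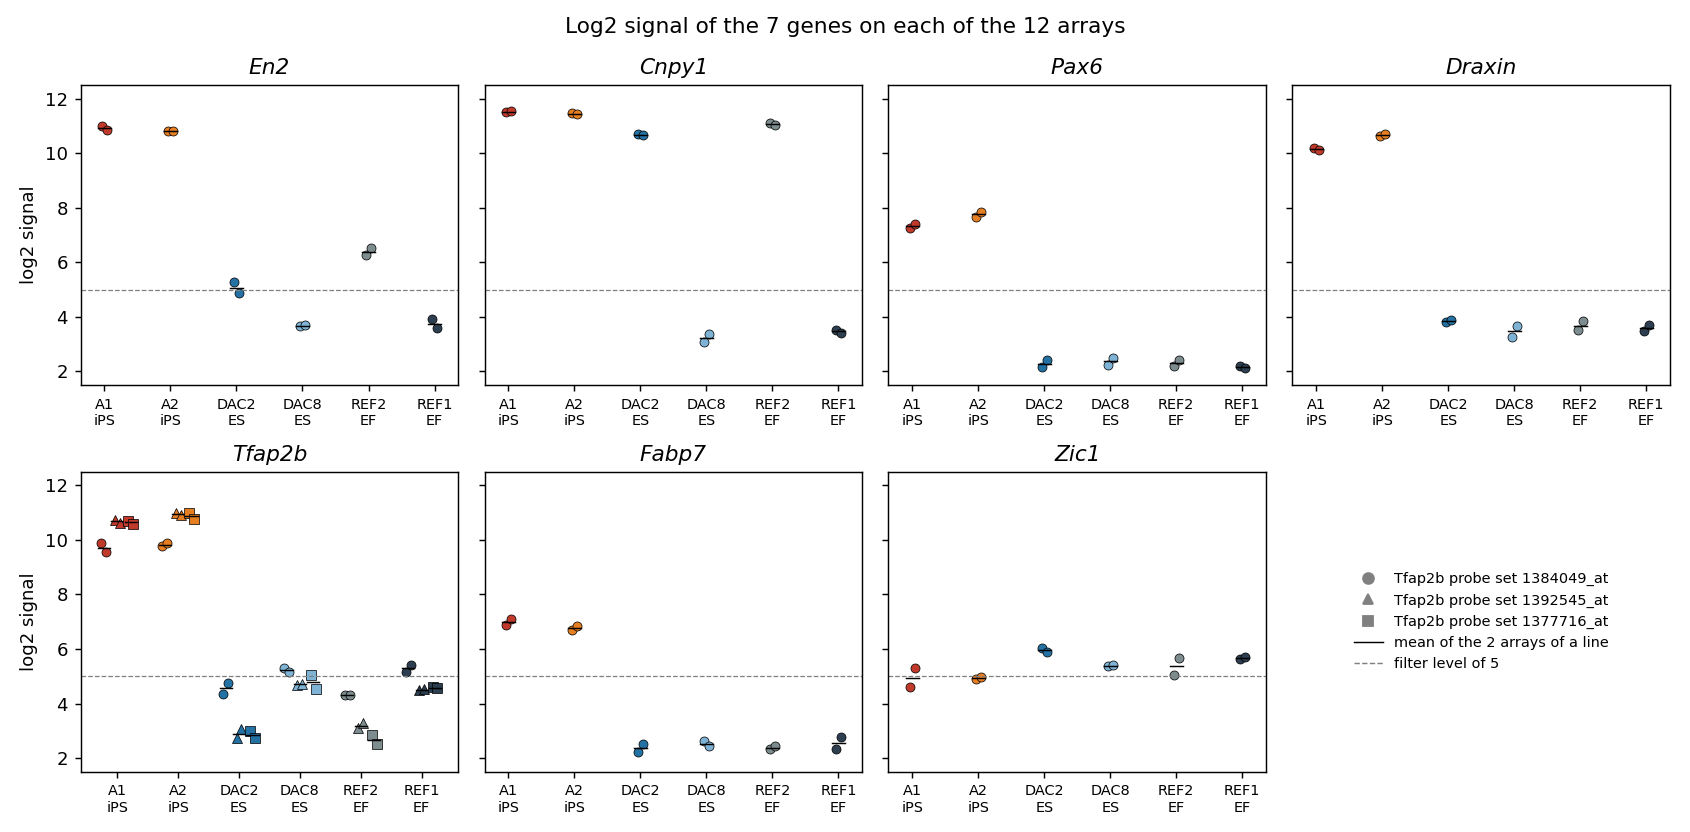
Log2 signal (y axis) of each gene on each array, by line (x axis); each point is an array, bars are means of the 2 arrays of a line, the dashed line is the filter level of 5, and the 3 Tfap2b probe sets have their own symbols. En2, Pax6, Draxin, Tfap2b and Fabp7 are high in A1 and A2, Cnpy1 is also high in DAC2 and REF2, and Zic1 stays between 4.59 and 6.03 on all arrays.

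The nearest tested genes on either side of En2 and Cnpy1 spanned a much narrower range. In annotated order Rbm33 comes before Cnpy1, with Shh, the ventral signal of the neural tube, beyond it, and Insig1, a regulator of sterol synthesis, comes after En2; 1 annotated gene lies between each of Rbm33 and Insig1 and the pair. Rbm33 lay between 8.17 and 8.98 on all 12 arrays and Insig1 between 8.37 and 10.21. Within its range Rbm33 was also graded, at 8.94 in A1 and 8.97 in A2, then 8.54 in DAC2 and 8.43 in REF2. It was lowest in DAC8, at 8.29, and REF1, at 8.19. Shh had line means of 3.15 in A1, 3.39 in A2, 3.67 in DAC2, 3.23 in DAC8, 3.36 in REF2 and 3.56 in REF1, all under 5. The neighbours En2 and Cnpy1 had a Pearson correlation of 0.76 over the 12 arrays, a description over arrays that share 6 lines.

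**Figure D2:**
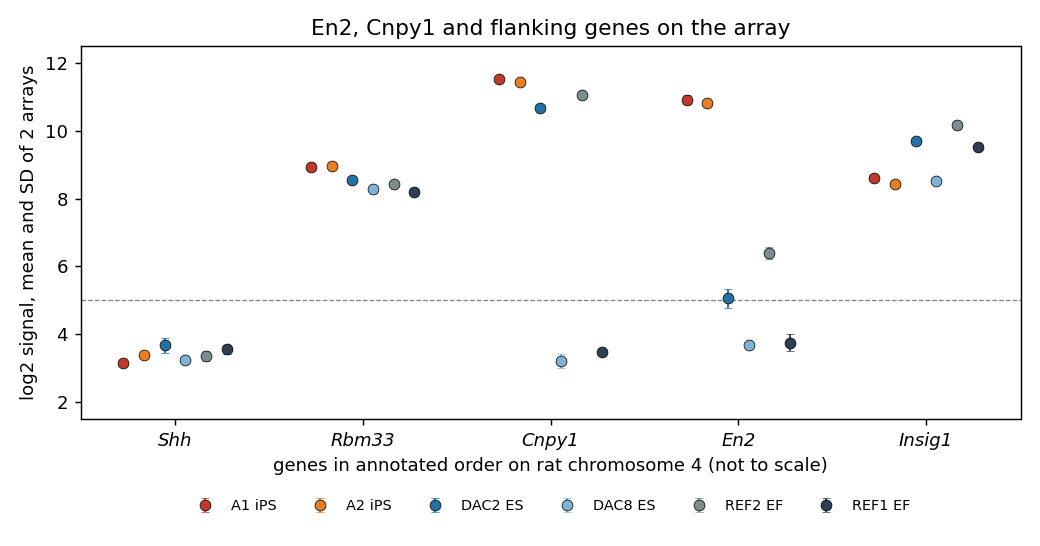
Log2 signal (y axis, mean and SD of the 2 arrays of each line) of En2, Cnpy1 and the flanking genes on the array, in annotated order on chromosome 4 (x axis, not to scale); the dashed line is the filter level of 5. DAC2 and REF2 stand beside A1 and A2 for Cnpy1 (10.68 and 11.06) and well below them for En2 (5.06 and 6.39).

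Pax6, the paired-box factor of neural progenitors, was measured above 5 in the iPS lines only. It read 7.25 and 7.41 in A1 and 7.67 and 7.85 in A2, against 2.16 and 2.41 in DAC2, 2.24 and 2.49 in DAC8, 2.19 and 2.41 in REF2, and 2.19 and 2.12 in REF1. The 2 iPS lines did not overlap each other, with A2 the higher. Their difference did not pass, at -0.43 for A1 minus A2 (95% interval -0.71 to -0.15, limma adjusted p = 0.148). All 6 differences among the other lines were at most 0.22 in size and did not pass, on levels far under 5. The Pax6 neighbours Rcn1 and Elp4 were high in all lines, at 7.68 to 11.19 and 6.71 to 8.25. Pax6 is also a gene of the eye and the surface ectoderm: of 5 tested eye and lens markers 0 rose and 0 fell in both iPS lines against every other line (at least 2-fold and limma adjusted p under 0.05 in all 8 pairs). The retinal factor gene Rax averaged 4.99 in A1 and 5.44 in A2, against 4.23 to 4.52 in the others, and the lens crystallin gene Cryba1, not tested, 3.77 and 4.36 against 2.44 to 2.63, while Cryab averaged 3.58 and 3.68 against 4.16 to 12.22. Of 4 tested surface ectoderm markers Grhl3 rose and Eya1 fell by the same count.

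Tfap2b, a factor of the AP-2 family, had 3 probe sets that gave the same picture. The set with the highest mean, 1384049_at, read 9.89 and 9.55 in A1 and 9.77 and 9.87 in A2, against 4.36 and 4.77 in DAC2, 5.29 and 5.15 in DAC8, 4.33 and 4.33 in REF2, and 5.17 and 5.42 in REF1. The other sets read 10.58 to 10.73 in A1 and 10.78 to 11.00 in A2, against 2.73 to 3.06 in DAC2, 4.54 to 5.06 in DAC8, 2.53 to 3.27 in REF2, and 4.48 to 4.59 in REF1. Outside the iPS lines Tfap2b ran opposite to Cnpy1: it was lower in REF2 than in REF1, at -0.97 ± 0.15 (limma adjusted p = 0.000224), and lower in DAC2 than in DAC8, at -0.66 ± 0.15 (limma adjusted p = 0.00278). The sets 1392545_at and 1377716_at gave -1.31 ± 0.11 and -1.90 ± 0.17 for REF2 minus REF1 and -1.80 ± 0.11 and -1.93 ± 0.17 for DAC2 minus DAC8, and each passed (limma adjusted p from 1.77e-07 to 3.88e-06 over 15186 probe sets). All of these levels were near or under 5. Of the 5 neural crest markers measured here, Erbb3, Foxd3, Ngfr, Sox10 and Tfap2a, 0 reached 5 in A1 or A2, against 2 in DAC2, 3 in DAC8, 1 in REF2 and 2 in REF1, and the log2 of their summed signals was 6.31 to 6.52 in the iPS lines and 7.52 to 8.26 in the others. The nearest tested genes on either side of Tfap2b lie 29 and 10 annotated genes away: Rhag averaged 2.82 in A1, 3.0 in A2, 9.12 in DAC2, 3.10 in DAC8, 9.19 in REF2 and 3.09 in REF1, and Mcm3 lay between 7.74 and 9.80 on all arrays.

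Zic1, a zinc-finger factor of the dorsal neural tube, went against the grouping and was not high in the iPS lines. It measured 4.59 and 5.30 in A1 and 4.91 and 4.97 in A2. It measured 6.03 and 5.90 in DAC2, 5.38 and 5.40 in DAC8, 5.06 and 5.66 in REF2, and 5.64 and 5.72 in REF1. All 12 values lay between 4.59 and 6.03, near the filter level, and the iPS arrays overlapped only REF2. DAC2 was higher than DAC8 by 0.57 ± 0.23 (limma adjusted p = 0.0399), the only one of 6 pairs outside the iPS lines to pass, and this call was lost without A2 replicate 1 or 2, DAC2 replicate 1 or 2, DAC8 replicate 1 or 2, or REF1 replicate 1 or 2 (adjusted p from 0.0531 to 0.141). DAC2 minus REF2 was as large, at 0.60 ± 0.23, and did not pass (limma adjusted p = 0.0573); it passed under 7 of the alternatives tried (adjusted p from 0.0166 to 0.0438). Its neighbour Zic4 lay between 4.27 and 5.32 on all arrays, and Tbc1d2b, on the other side, between 6.67 and 7.99.

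Draxin, the secreted axon guidance protein, was above 5 in the iPS lines only. It measured 10.19 and 10.12 in A1 and 10.61 and 10.71 in A2, against 3.81 and 3.90 in DAC2, 3.27 and 3.66 in DAC8, 3.52 and 3.84 in REF2, and 3.49 and 3.69 in REF1. A1 lay below A2 by a difference that did not pass (-0.51 for A1 minus A2, 95% interval -0.82 to -0.19, limma adjusted p = 0.13). DAC2 passed against DAC8 at 0.39 ± 0.14 (limma adjusted p = 0.0258), both far under 5, and lost the call without DAC2 replicate 1, DAC2 replicate 2 or DAC8 replicate 1 (adjusted p = 0.0523, 0.106 and 0.212). DAC2 minus REF1, at 0.26, passed with a replicate block (limma adjusted p = 0.0435) and without DAC8 and REF2 (0.0205), and DAC8 minus REF2, at -0.22, passed without DAC8 replicate 2 (-0.41, limma adjusted p = 0.0227). The nearest tested genes, Agtrap and Mad2l2, lay between 5.48 and 7.41 and between 7.41 and 8.44.

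Fabp7 was above 5 in the iPS lines only. It measured 6.89 and 7.10 in A1 and 6.70 and 6.85 in A2, against 2.24 and 2.52 in DAC2, 2.61 and 2.46 in DAC8, 2.32 and 2.44 in REF2, and 2.35 and 2.76 in REF1. The arrays of A1 and A2 were close, and A1 minus A2 was 0.22 (95% interval -0.11 to 0.56, limma adjusted p = 0.593). The 6 pairs among the other lines differed by at most 0.18 and did not pass; without REF1 replicate 1, both DAC2 minus REF1 and REF2 minus REF1 passed at -0.38 (limma adjusted p = 0.0405 and 0.0417). Its RefSeq window at chr20:37669356-37669655 on the plus strand of GRCr8 is shown as a contrast to the CpG-rich En2 and Cnpy1 windows, with capitals for the CCAAT box, read as ATTGG on the other strand, and the GC box, read as CCGCCC.
Fabp7: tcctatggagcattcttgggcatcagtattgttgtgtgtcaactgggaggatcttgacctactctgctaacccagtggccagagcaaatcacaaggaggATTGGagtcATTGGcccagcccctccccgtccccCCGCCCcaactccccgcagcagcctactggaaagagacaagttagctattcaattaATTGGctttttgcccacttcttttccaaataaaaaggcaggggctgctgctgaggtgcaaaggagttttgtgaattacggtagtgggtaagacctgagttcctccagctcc
This window held 4 CpG pairs and 51.3% G and C, with 3 CCAAT matches and 1 GC box match. The Pax6 window held 7 CpG pairs and 43.0% G and C; of 2 annotated Draxin windows, 1 held 39 and the other 4. The 5 genes with a window therefore ranged over CpG-poor and CpG-rich starts, and Zic1 and Tfap2b were not matched. The adjacent gene Smpdl3a, a phosphodiesterase, had line means of 6.26 in A1 and 5.94 in A2, against 3.94 in DAC2, 4.79 in DAC8, 3.69 in REF2 and 4.84 in REF1, and passed as at least 2-fold higher in both iPS lines than in every other line. Smpdl3a reached 5 only in the iPS lines, so that level brought it into the test. Pkib, on the other side, averaged 4.07 in A1, 4.08 in A2, 2.92 in DAC2, 2.57 in DAC8, 5.16 in REF2 and 2.74 in REF1.

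By cell type label, the comparison the series was designed for, iPS minus ES was 6.50 for En2, 4.55 for Cnpy1, 5.22 for Pax6, 4.87 for Tfap2b, -0.73 for Zic1, 6.75 for Draxin and 4.43 for Fabp7. The iPS minus EF differences were 5.79, 4.22, 5.32, 4.95, -0.58, 6.78 and 4.42 in the same order, and both comparisons share the 4 iPS arrays. For 6 of the 7 genes all 4 iPS arrays lay above the 8 others, which held for 20.2% of 11000 genes. Nothing is read from this count, since the choice of genes used this contrast, and no test of it is given. In these bulk samples fewer cells of a type and less RNA per cell cannot be told apart.

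The 7 pairs that do not set an iPS line against a line of another cell type are given with the share of all genes that passed. In the 6 pairs without an iPS line Pax6, Draxin and Fabp7 lay under 5 on both sides, so the shares are not compared. For A1 minus A2 limma called 0 of 7 members and 1.8% of all genes; 2 members, Pax6 and Draxin, had an unadjusted p under 0.05. For DAC8 minus REF1 it called 0 of 7 and 19.8% of genes, with 1 member, Cnpy1, at an unadjusted p under 0.05 (-0.26 ± 0.09, limma adjusted p = 0.0728), which passed with an intensity trend (limma adjusted p = 0.0172) and without DAC8 replicate 2 (-0.42, limma adjusted p = 0.00943). It called 5 of 7 for DAC2 minus DAC8, where 84.2% of genes passed, and 3 of 7 for DAC2 minus REF1, where 84.2% passed. It called 2 of 7 for DAC2 minus REF2 (45.7% of genes), 3 of 7 for DAC8 minus REF2 (83.5%) and 3 of 7 for REF2 minus REF1 (83.3%). The median difference of the 7 genes was 0.01 for A1 minus A2, against 0 over all genes, and 0.09 for REF2 minus REF1, against 0.15 over all genes. Cnpy1, En2 and Tfap2b made up the calls between a line of ES-like profile and a line of fibroblast profile, joined by Zic1 and Draxin for DAC2 minus DAC8.

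**Figure D3:**
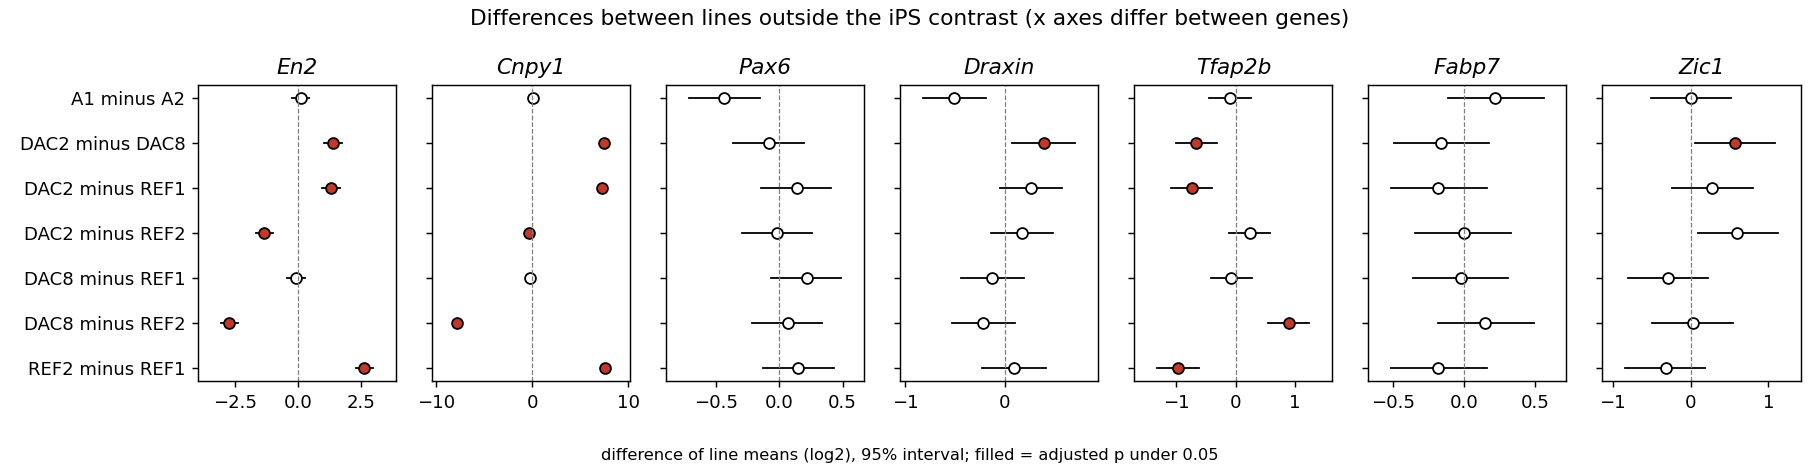
Difference of line means (x axis, log2, scales differ between genes) for the 7 pairs (y axis) that do not set an iPS line against a line of another cell type. Points are estimates, bars 95% intervals, and filled points have an adjusted p under 0.05. For A1 minus A2 every point is open, while Cnpy1 reaches 7.59 for REF2 minus REF1 and -7.85 for DAC8 minus REF2.

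The genes most alike in pattern were found by Pearson correlation over the 12 arrays, which share 6 lines. Nearest to En2 were Mylk3 (r = 0.998), Il18 (0.998) and Lzts1 (0.997), which also stood higher in REF2 and DAC2 than in REF1 and DAC8. Nearest to Cnpy1 were Pctp (0.997), Trappc14 (0.996) and Plekhh1 (0.995); Plekhh1 averaged 10.81 in A1, 10.96 in A2, 10.61 in DAC2, 2.63 in DAC8, 9.84 in REF2 and 2.54 in REF1. Pax6 and Draxin were among each other's nearest 3 (0.998), beside Kiaa0408L (0.999) and Cadps (0.998) for Pax6 and Mapk11 (0.999) and Tal1 (0.999) for Draxin. Tfap2b was nearest to the neurofilament-related gene Ina (0.998) and the Iroquois factors Irx2 and Irx3 (0.998 each). Fabp7 was nearest to Plcxd3, Prkcb and the long noncoding RNA Miat (0.998 each). Zic1 had no close match, with Itpr3 (0.862), Dsg2 (0.855) and Fam83h (0.843) first among 3335 genes whose line means spanned at least 2 log2 units.

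Other genes of the region and domain lists were then read by a stricter count, at least 2-fold and limma adjusted p under 0.05 in the same direction in all 8 pairs of an iPS line with another line. Of all 11000 genes, 5.03% were higher in both iPS lines by this count and 2.95% lower, and the median of the iPS mean minus the mean of the other lines was 0.02. Some list genes reached the filter level of 5 only in an iPS line and were tested through that level. Among the risen genes named below these were Gata2, Lhx1, Lhx5, Irx1, Neurod1, Nkx6-1, Hhip, Hes5, Ptprz1 and Dscam. Of the neuron markers, Elavl4 and Snap25 did so as well. The counts of risen genes and the list medians therefore depend in part on the filter. Of the midbrain and boundary genes other than members, 21 of 28 were on the array and 14 were tested; 4 rose, 0 fell, and the list's median was -0.09. These were Gata2, a factor of midbrain GABA neurons, at 9.64 in A1 and 9.83 in A2 against 3.52 to 4.86 in the other lines, and Irx3, Meis2 and Lhx1, at least 2.48, 1.80 and 1.81 above every other line (largest of 8 adjusted p = 1.67e-10, 3.62e-07 and 7.25e-07). The boundary signals were not among them: Wnt1 had line means of 5.51 in both iPS lines and 5.62 to 5.72 in the others, and Fgf8 lay under 5 in every line. The boundary factors Pax2 and Otx2 also lay under 5 in every line. Gbx2, a hindbrain-side factor that is also expressed in pluripotent cells, averaged 4.11 in A1 and 3.99 in A2, against 9.30 in DAC2, 3.09 in DAC8, 9.47 in REF2 and 3.29 in REF1. Of the same list, Spry2 and Spry4 were lower in the iPS lines in all 8 pairs (largest of 8 limma adjusted p = 0.000119 and 0.0188). Their differences ran from -2.76 to -0.6 and from -2.49 to -0.39, so they missed only the 2-fold cut. Gata3 was higher in all 8 pairs, by 0.89 to 5.04 (largest of 8 limma adjusted p = 7.23e-05), and missed the same cut.

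Of the forebrain genes, 18 of 25 were on the array, 7 were tested and 1 rose, Lhx5, with line means of 6.45 in A1 and 6.74 in A2 against 4.38 to 4.61 in the others (list median 1.28). Lhx5, Rax, Dlx1 and Nr2f1 reached 5 only in an iPS line, so that level brought them into the test. Rax, Dlx1 and Nr2f1 were also higher in the iPS lines in all 8 pairs (largest of 8 limma adjusted p = 0.0358, 0.0214 and 0.0162). Their smallest differences were 0.47, 0.54 and 0.91, so they missed only the 2-fold cut. Lhx2, Eomes and Nr2f2 had differences in both directions. The 11 untested genes, Emx1, Emx2, Six3, Six6, Otx1, Dlx5, Nkx2-1, Tbr1, Fezf2, Barhl2 and Vax1, lay under 5 in every line, which does not show that they were silent. Of 12 tested hindbrain and cerebellum genes 3 rose and 0 fell (17 of 25 on the array, list median -0.61). These were the proneural factor Neurod1, at 6.75 and 6.76 in A1 and A2 against 2.21 to 2.41 in the others, and Irx1 and Irx2, at least 3.57 and 3.56 above every other line. The rhombomere genes Hoxb2, Hoxb3 and Hoxb4 were under 5 in A1 and A2, with Hoxb2 at 4.43 and 4.26 against 4.66 in DAC2, 8.38 in DAC8, 4.99 in REF2 and 8.24 in REF1. Hoxb3 and Hoxb4 were lower in the iPS lines in all 8 pairs (largest of 8 limma adjusted p = 0.00963 and 0.00157). Their differences ran from -1.51 to -0.64 and from -2.45 to -0.78, so they missed only the 2-fold cut. Egr2, also of the hindbrain list, averaged 5.25 in A1 and 3.83 in A2. Its means were 3.79 in DAC2, 6.45 in DAC8, 3.99 in REF2 and 6.17 in REF1.

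Along the axis from roof to floor, 4 of 9 tested dorsal genes other than Zic1 fell in both iPS lines and 0 rose (11 of 19 on the array, list median -1.68). These were Bmp4, a roof plate and ectodermal signal, at 5.30 in A1 and 4.82 in A2 against 9.12 to 10.54 in the others, its pseudoreceptor gene Bambi, and the homeobox genes Msx1 and Msx2 (largest of 8 adjusted p = 2.5e-10, 8.33e-07, 3.29e-08 and 5.26e-06). Bmp7, of the same list, went the other way, at 6.83 in A1 and 7.42 in A2 against 4.79 to 6.22 in the others. It was higher in all 8 pairs (largest of 8 limma adjusted p = 0.000739), with differences from 0.61 to 2.63, and so missed the 2-fold cut. Of 5 tested ventral genes 2 rose and 0 fell (13 of 20 on the array, list median 1.41), namely Nkx6-1, a ventral progenitor factor, at 6.05 in A1 and 6.25 in A2 against 2.87 to 3.13 in the others, and Hhip, a target and inhibitor of hedgehog signalling, at 5.10 in A1 and 4.84 in A2 against 2.38 to 2.48. Nkx6-1 and Hhip reached 5 only in an iPS line, so that level brought them into the test. The floor plate factor Foxa2 and the ventral factors Nkx2-2 and Olig2 lay under 5 in every line.

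Of 11 tested radial glia and progenitor genes other than members 5 rose and 0 fell (17 of 18 on the array, list median 1.93). Hes5 and Notch1, a target and a receptor of Notch signalling, stood at least 3.52 and 2.52 above every other line, Ptprz1 at least 3.29, the glutamate transporter gene Slc1a3 at least 1.71 and Nes, which encodes nestin, at least 1.58 (largest of 8 adjusted p from 7.58e-10 to 3.4e-06). Hes1, of the same list, went the other way, at 7.36 in A1 and 6.79 in A2 against 8.27 to 9.29 in the others. It was lower in all 8 pairs (largest of 8 limma adjusted p = 6.41e-06), with differences from -2.5 to -0.91, and so missed the 2-fold cut. Sox1 and Gfap lay under 5 in every line. Of 9 tested neural crest genes 0 rose and 2 fell, Tfap2a and Ngfr (11 of 19 on the array, list median -1.21). Snai1 and Sox10 were lower in all 8 pairs (largest of 8 limma adjusted p = 0.00871 and 0.0452) and missed only the 2-fold cut. Not all of the list was low in A1 and A2. Ets1 averaged 9.64 and 9.43, against 7.76 in DAC2, 9.78 in DAC8, 7.61 in REF2 and 9.51 in REF1. Twist1 averaged 6.6 and 6.38, against 3.33 in DAC2, 9.07 in DAC8, 4.49 in REF2 and 9.36 in REF1. Neuron markers moved with the members as well: 9 of 10 rose by the same count, and the log2 of the 10 summed signals was 14.80 to 14.83 in A1 and A2, against 10.62 to 11.28 in the others, with Syt1 under 5 in all 6 lines. Their part in the levels of the 7 genes was not tested.

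**Figure D4:**
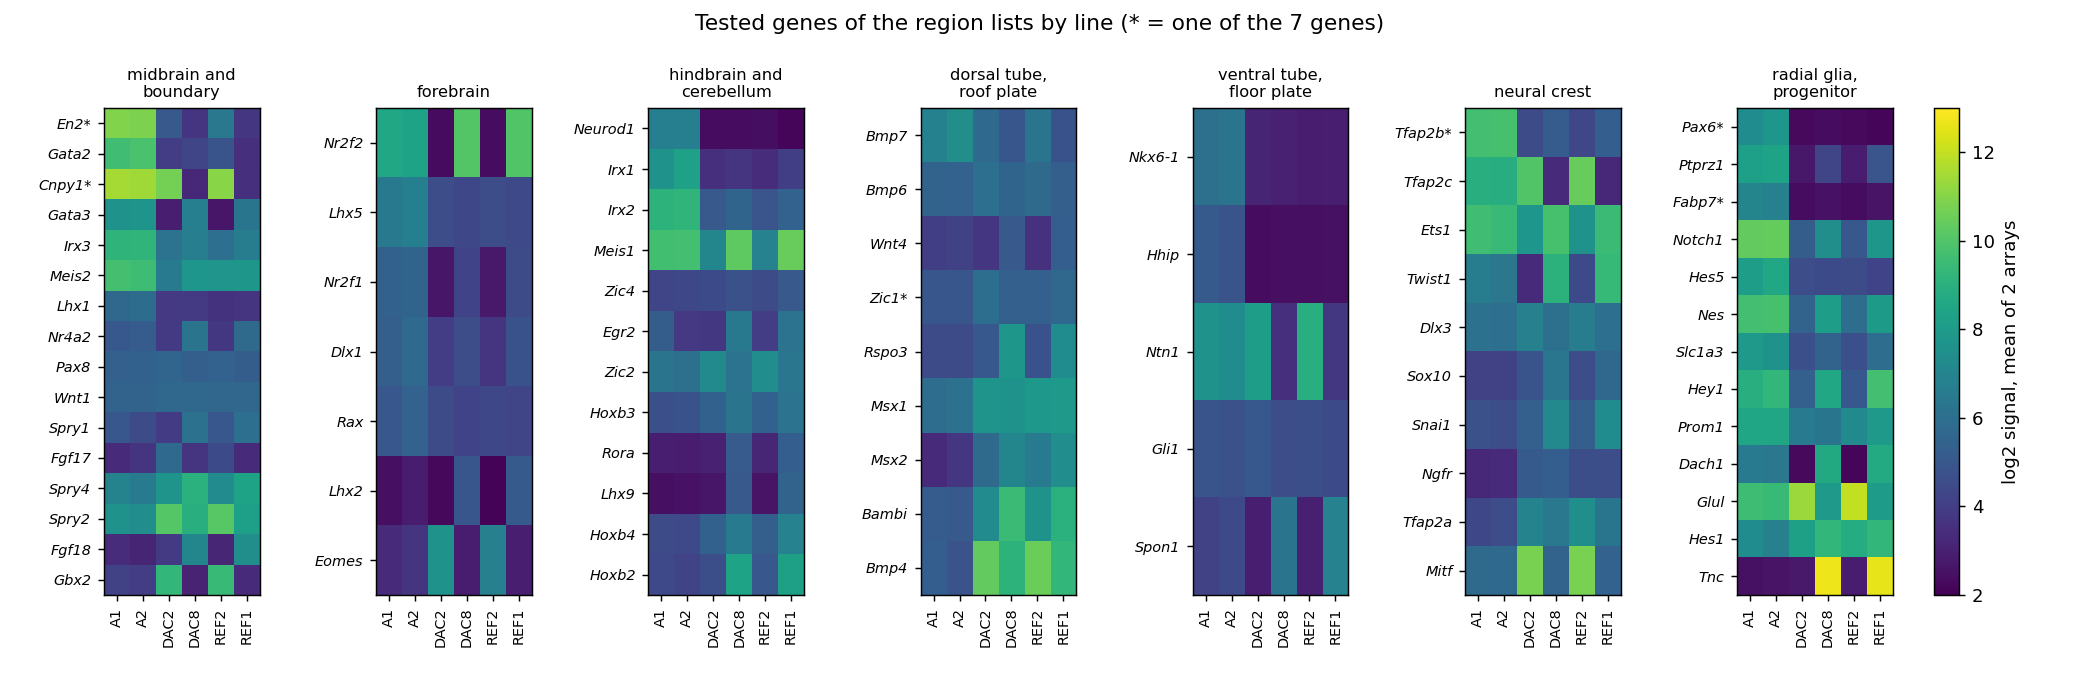
Line means (colour, log2 signal) of the tested genes of 7 region and cell lists, with lines as columns and genes as rows in order of the iPS mean minus the mean of the other lines; a gene in several lists is drawn once, and stars mark the 6 of the 7 genes that these lists hold (all but Draxin). En2, Gata2, Irx1, Irx2 and Irx3 are bright in A1 and A2, while Bmp4 and Gbx2 are brightest in DAC2 and REF2.

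Relatives of the members showed several patterns. In the AP-2 family Tfap2a fell in both iPS lines (4.40 in A1 and 4.61 in A2, against 6.26 to 7.46), and Tfap2c, also a factor of trophoblast and germ cells, averaged 8.89 in A1, 8.84 in A2, 10.02 in DAC2, 3.36 in DAC8, 10.44 in REF2 and 3.24 in REF1, the same 4 high lines as Cnpy1. Among Fabp genes 2 of 9 relatives were tested and Fabp5 rose, at 13.07 and 12.97 in A1 and A2 against 8.40 to 11.62. Fabp3 was lower, at 8.74 in A1 and 8.46 in A2 against 9.31 to 12.38 in the others. Its differences ran from -3.92 to -0.57 (largest of 8 limma adjusted p = 2.44e-05), so it missed only the 2-fold cut. Of 3 canopy relatives, Cnpy2, Cnpy3 and Cnpy4, 0 rose and 0 fell by the 8-pair count, and none had the pattern of Cnpy1. Cnpy3 was lower in the iPS lines in all 8 pairs (largest of 8 limma adjusted p = 2.61e-06). Its differences ran from -1.05 to -0.66, so it missed only the 2-fold cut, while Cnpy2 and Cnpy4 had differences in both directions. Of the Pax relatives only Pax8 was tested, at 5.26 to 5.59 in all lines; Pax1, Pax2, Pax4 and Pax9 lay under 5. Of 6 tested draxin and netrin partners Dscam rose and Unc5b fell (9 of 12 on the array, list median -0.08), and Dcc, the receptor to which draxin binds, lay under 5 in every line. Zic2 averaged 6.22 in A1 and 6.05 in A2, against 7.24 in DAC2, 6.19 in DAC8, 7.39 in REF2 and 6.33 in REF1.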

How the data were processed

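The deposited table holds log2 signals of 31099 probe sets, made by the authors with RMA and Partek 6.2 per the submitters' processing notes; about 100 ng of RNA was amplified per array, per the labels' protocols. The sources used here do not give whether all arrays were normalized in 1 run. Values lay between 1.45 and 14.12 and array medians between 5.28 and 5.41; the number of arrays limits precision. The beta-actin 3' minus 5' signal, a sign of RNA quality, was 0.84 to 0.87 in A1 and A2, 0.88 in DAC2, 0.45 to 0.52 in DAC8, 0.94 to 1.05 in REF2 and 0.42 to 0.48 in REF1.

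By the platform's annotation, 20826 probe sets had 1 gene symbol, 436 several and 9831 none; 20758 of the first matched RefSeq by gene identifier, with 0 symbols changed. A gene was read from its probe set of highest 12-array mean. Genes whose highest line mean was under 5 were left out, which left 11000 of 14217, all 7 members among them. Pairs of lines were tested with limma 3.58.1 in R 4.3.3, with the 6 lines as factor, 6 residual degrees of freedom and Benjamini-Hochberg adjustment over 11000 genes within each pair; a call is an adjusted p under 0.05.

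Members, lists and tests were chosen with earlier results of these data known; the count over 8 pairs was added after the data were seen. A planned background share of all genes called between cell types, with line as a random block, is not given, since no count of members is read against it. Named genes were the members, the called genes of each list, the 3 genes most correlated with each member and the nearest tested gene on either side; others were picked after their values were seen. In simulated A1 and A2 arrays of 11000 genes, changes of 0.3, 0.5, 1 and 2 log2 units were called for 26%, 66%, 96% and 100% of the changed genes, and 7.69% of the calls were false. Alternatives were other normalizations, filters, probe set summaries and variance models, a replicate block, and arrays or lines left out.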

Additional observations from a re-analysis of the deposited data

Results flagged for a closer look

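Within the 4 arrays of each cell type, 27 groups were examined for an array standing apart from the other 3, and chance flags about 1 in 20. En2 was marked in iPS arrays, where A1 replicate 1 at 11.00 stood above the others at 10.80 to 10.83 (ratio of gap to range 0.864). Zic1 was marked in EF arrays, where REF2 replicate 1 at 5.06 stood below the others at 5.64 to 5.72 (ratio 0.879).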

How the results depend on the processing

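Over 22 alternatives, 1009 of 1036 recomputed member differences kept their call, 12 lost it and 15 gained it; 0 called differences changed sign, and 32 uncalled ones did. The calls lost were of Zic1, Draxin or Cnpy1, and those gained of these or Fabp7. Of 359 recomputed counts, 344 stayed within 1.5 times. With an intensity trend the genes called for A1 minus A2 numbered 359 (198 as reported), and the members called for DAC8 minus REF1 numbered 1 (Cnpy1, 0 as reported). Without DAC8 and REF2, whose profiles go against their labels, A1 minus A2 gave 105 genes, DAC2 minus REF1 gave 9108 genes (9266 as reported) and 4 members, the 8-pair counts became 651 higher and 381 lower over the 4 pairs left (553 and 324 as reported), and 6 members still had all iPS arrays above the rest. Leaving out 1 array at a time gave 77 to 182 genes for A1 minus A2 (111 and 80 without A1 replicate 1 or 2, 77 and 100 without A2 replicate 1 or 2) and 1246 to 2117 for DAC8 minus REF1 (2174 as reported; 1246 and 1378 without DAC8 replicate 1 or 2, 1322 without REF1 replicate 2). The members called then ranged from 3 to 5 for DAC2 minus DAC8, from 1 to 3 for DAC2 minus REF2 and from 0 to 1 for DAC8 minus REF1. Lone arrays were assumed to vary like the other lines, and the causes were not tested.

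Replicate numbers are shared across lines, and the deviations of same-numbered arrays correlated at -0.08 to 0.24, over 0.1 in 3 of 15 pairs of lines. Whether the numbers pair some of the arrays cannot be told from these values, and the main fit had no replicate block. With a replicate block, 190 genes were called for A1 minus A2 (198 without), 4 members for DAC2 minus REF1 and 3 for DAC2 minus REF2 (3 and 2 without). Among the list counts, the forebrain genes higher in iPS lines numbered 2 without REF1 replicate 1 (1 as reported), the dorsal ones 1 without DAC8 and REF2 and the lower radial glia genes 1 with equal medians (0 as reported for both), the ventral ones 1 with a filter at 6 or on cell type means, and the lower neural crest genes 1 with a filter at 6; the draxin and netrin partners higher numbered 0 with that filter and those lower 0 with the mean of a gene's probe sets. Signals under 5 limit every difference that involves them.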
